A study of Mus musculus with 25 samples.

Results

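The genera Acetivibrio, Anaerobacterium and Ruminiclostridium were followed through the fecal bacteria of C57BL/6 mice by full-length sequencing of the 16S rRNA gene, the gene by which bacteria are commonly named. Members were all amplicon sequence variants (ASVs, distinct 16S sequences left after error removal) whose deposited genus name was one of the 3, which gave 295 of the 1555 ASVs in the table. They held 36118 of 300831 counts (12.01%). Acetivibrio had 117 ASVs and 19368 counts, Anaerobacterium 162 ASVs and 15517 counts, and Ruminiclostridium 16 ASVs and 1233 counts. The deposited taxonomy placed all of them in the Oscillospiraceae, and on average they made up 55.1% ± 14.4 of the counts of that family (SD, n = 25).

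There were 25 libraries, 5 from each of 5 groups. Sham usually means a mock operation. OVX, usually short for ovariectomy, was given alone in 1 group and shared by 3 more, which added GEX, a treatment that the labels do not spell out, PBS, a buffered saline, or FMT, usually short for fecal microbiota transplantation. Estrogen deficiency and a traditional medicine are named in the design text, while the sex label of every sample reads male. No age, dose, duration, donor or cage was given in the labels, and whether libraries of a group came from separately housed animals is not stated, so the p-values below cover the spread from library to library, whatever its source.

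Acetivibrio and Ruminiclostridium include anaerobes known for building cellulosomes, enzyme complexes held at the cell surface that take apart crystalline cellulose. Anaerobacterium was described from a cellulose-degrading anaerobe of rice field soil. In the gut, such clostridia are known for opening plant cell walls, and the sugars and acids they release are used by other bacteria. The genus names were assigned by the authors, and the data hold the share of 16S counts, not enzymes or activity. The ASV sequences and the enzymes of these bacteria were not analysed here.

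Library totals ran from 8498 to 22404 counts, and 5 libraries had more than 15000 (Sham replicates 3 and 4, OVX+PBS replicate 1, OVX+FMT replicates 1 and 5). The 95% Wilson interval of a genus share in 1 library is not centred on the share. Its half-width was at most 0.754 percentage points for Acetivibrio, 0.601 for Anaerobacterium and 0.220 for Ruminiclostridium. Where a genus had no counts, the upper limit was taken as 3 counts, which is at most 0.0353% of a library. The table holds no count of 1, so single reads may be missing from it, and both this limit and the richness values below describe only the deposited counts. Intervals and floors cover counting error only, and shares of one library add up to a fixed total, so a share can fall because other bacteria rose.

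Acetivibrio was the fourth most abundant of the named genera and Anaerobacterium the fifth, while Ruminiclostridium stood at rank 31. Their mean shares over the 25 libraries were 6.06%, 5.09% and 0.361% of the counts. Acetivibrio was seen in every library at 1.75% to 18% and Anaerobacterium in every library at 1.41% to 9.05%. Ruminiclostridium had no counts in 4 libraries and reached 1.43% in its highest.

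The Acetivibrio share was highest on average in Sham and lowest in OVX. In Sham it was 7.57%, 5.20%, 8.74%, 10.6% and 8.43% in replicates 1 to 5, which gives 8.11% ± 1.96 (SD, n = 5). In OVX it was 6.67%, 3.42%, 2.72%, 2.04% and 5.01%, with a mean of 3.97% ± 1.87 (SD, n = 5). Only OVX replicate 1 stood above the lowest Sham library, so the groups overlapped by a single library on each side. The difference of -4.13 points (OVX minus Sham) gave an exact two-sided permutation p of 0.0159, and 0.321 after Benjamini-Hochberg adjustment over the 81 genera tested. The smallest p this test can give is 0.00794, with which no genus could pass that adjustment by itself. Of those genera, 9.88% were lower and 2.47% higher in OVX at an unadjusted exact p under 0.05.

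In OVX+GEX the Acetivibrio share was 3.09%, 18%, 4.35%, 3.81% and 3.80%. Replicate 2 held more than any other library of the series, and the other 4 fell within the OVX range. The group mean of 6.61% ± 6.38 (SD, n = 5) rests on that library. The mean difference from OVX was 2.64 points with all libraries and -0.212 points without it. The share was 12.1%, 5.49%, 7.65%, 4.23% and 1.75% in OVX+PBS and 5.49%, 8.36%, 3.90%, 6.53% and 2.52% in OVX+FMT. The OVX+FMT values all lay inside the range of OVX+PBS. The means of those groups were 6.25% ± 3.92 and 5.36% ± 2.27 (SD, n = 5).

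The group means of Anaerobacterium ran from 4.61% to 6.33%, a span smaller than the range of libraries within each group. Its share in replicates 1 to 5 was 8.48%, 7.33%, 7.90%, 4.26% and 3.66% in Sham, and 6.12%, 1.96%, 1.41%, 7.46% and 6.66% in OVX. In OVX, replicates 2 and 3 were low and the other 3 fell inside the Sham range. It was 8.50%, 2.13%, 3.60%, 5.53% and 3.30% in OVX+GEX. In OVX+PBS it was 6.44%, 3.13%, 9.05%, 4.56% and 1.49%, so the highest and close to the lowest values of the series came from one group. The OVX+FMT libraries held 5.57%, 6.31%, 3.55%, 5.03% and 3.91%, the narrowest spread of the 5 groups. Group means were 6.33% ± 2.21, 4.72% ± 2.82, 4.61% ± 2.49, 4.93% ± 2.93 and 4.87% ± 1.15 (SD, n = 5) in that order.

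Ruminiclostridium was present in 21 libraries and uneven in every group. Its share was 0%, 0.430%, 0.115%, 1.08% and 0.898% in Sham and 1.43%, 0.0452%, 0%, 0.207% and 0.809% in OVX. OVX+GEX held the lowest mean, with 0.338%, 0.110%, 0%, 0.177% and 0.0928%. The values were 0.377%, 0.0622%, 0.685%, 0.467% and 0% in OVX+PBS and 0.464%, 0.0759%, 0.159%, 0.148% and 0.856% in OVX+FMT. All 5 groups overlapped. Apart from Acetivibrio in OVX against Sham, no member reached an unadjusted exact permutation p of 0.05 for its share in the 4 comparisons, and the adjusted values of the remaining 11 ran from 0.721 to 1. Over all genera the exact test gave 1.23% higher and 4.94% lower in OVX+GEX against OVX, 7.41% higher and 1.23% lower in OVX+FMT against OVX+PBS, and 3.7% higher and 6.17% lower in OVX+PBS against OVX. No member's libraries were separate from those of the compared group, which was so for at most 1.23% of genera. In the order of group means, no pair of neighbouring groups differed by more than the larger of their SDs, for any of the 3 genera. Groups further apart in that order are not covered by this. For Acetivibrio its ends, OVX and Sham, differed by -4.13 points, more than the larger SD of 1.96.

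**Figure D1:**
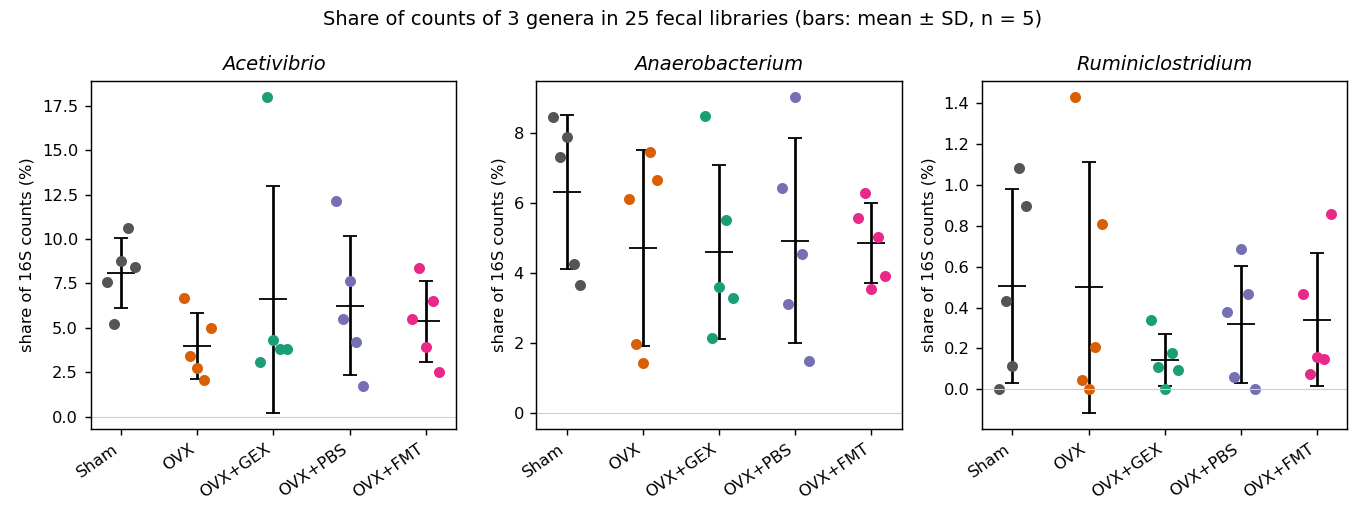
Share of 16S counts (percent of each library) of the 3 genera in 25 libraries; points are libraries, horizontal marks and bars the mean and SD of 5 libraries. OVX+GEX replicate 2 stands alone at 18% Acetivibrio, and the groups overlap in all 3 panels.

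In the fit across all genera (edgeR's quasi-likelihood test, all 25 libraries), no genus passed an adjusted p of 0.05 in any of the 4 comparisons (0% of 81 genera each), the 3 members included. At an unadjusted p under 0.05 the fit called 11.1% of genera in OVX against Sham, 6.17% in OVX+GEX against OVX, 14.8% in OVX+FMT against OVX+PBS and 13.6% in OVX+PBS against OVX, and no member was among them. Acetivibrio gave a log2 fold change of -0.55 (SE 0.52, adjusted p = 0.872) for OVX against Sham. It ran from -0.36 without OVX replicate 4 to -0.91 without Sham replicate 2. With library totals in place of TMM scaling, which estimates scale from the bulk of genera, it was -1.03 (SE 0.54, adjusted p = 0.543). The median genus moved from 0.15 to -0.22 between these scalings.

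For OVX+GEX against OVX, Acetivibrio gave 1.01 (SE 0.53, adjusted p = 0.517), the smallest unadjusted edgeR p of any member (0.0638). Without OVX+GEX replicate 2 the estimate was 0.07. Its values were -0.18 (SE 0.52) for OVX+FMT against OVX+PBS and 0.69 (SE 0.52) for OVX+PBS against OVX. Anaerobacterium estimates lay between -0.03 and 0.17 in the 4 comparisons, each with an SE of 0.48, and their sign changed under at least 1 other scaling in OVX against Sham, OVX+GEX against OVX and OVX+FMT against OVX+PBS. Ruminiclostridium had SEs of 1.24 to 1.28. Its lowest estimate was -1.68 for OVX+GEX against OVX (adjusted p = 0.760), which was -0.75 without OVX replicate 1, and the OVX against Sham estimate was 0.50 with TMM and -0.02 with library totals.

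**Figure D2:**
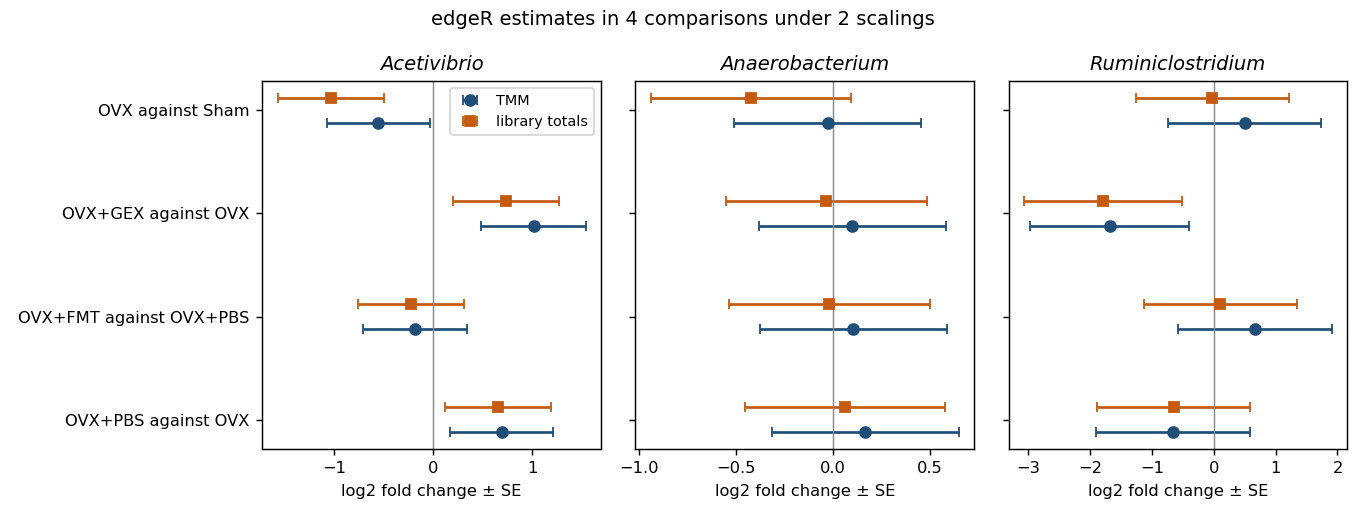
log2 fold change with its SE for each genus (panels) and comparison (rows), from edgeR on 25 libraries, with TMM scaling (circles) and with library totals (squares). No estimate passed an adjusted p of 0.05; Acetivibrio in OVX against Sham was -0.55 with TMM and -1.03 with library totals.

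The Acetivibrio counts were spread over 6 species names, and which one led changed from library to library. The name with most counts was Acetivibrio alkalicellulosi, an alkaliphilic cellulose degrader, with 50 ASVs and 34.9% of the genus. Acetivibrio straminisolvens, a cellulose degrader from composting straw, held 27.7% in 10 ASVs. Acetivibrio clariflavus, another cellulose degrader, held 22.4% in 18 ASVs and Acetivibrio cellulolyticus 11.2% in 27. The name Acetivibrio ethanolgignens, of a bacterium from the pig colon, held 2.67% and Acetivibrio thermocellus, the classic cellulosome producer, 1.24%. Several of these names belong to bacteria from hot or alkaline habitats, and whether the fecal ASVs are those species or relatives was not tested.

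A. alkalicellulosi led the genus in 11 libraries, A. straminisolvens in 9, A. clariflavus and A. ethanolgignens in 2 each and A. cellulolyticus in 1. The first 4 names with most counts were present in all 25 libraries. A. alkalicellulosi ranged from 0.129% to 7.94% of all counts, and from 3.40% to 62.0% of the genus. It peaked in OVX+GEX replicate 2 (7.94%) and OVX+PBS replicate 1 (7.52%), the 2 libraries with most Acetivibrio. In OVX+GEX replicate 2 the A. straminisolvens share was also its highest in the series, 5.02%.

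A. ethanolgignens was seen in 13 libraries and was uneven. It stood at 1.46% of counts in OVX replicate 3, where it made up 53.6% of Acetivibrio, and at 1.73% in OVX+GEX replicate 4, where it made up 45.4%. It was at most 0.451% in every other library and at 0 in 12. A. clariflavus reached 5.26% in Sham replicate 4, against 0.534% to 2.39% in the other Sham libraries. A. cellulolyticus stood at 2.34% in Sham replicate 3 and at 0.207% to 0.326% in the remaining 4.

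**Figure D3:**
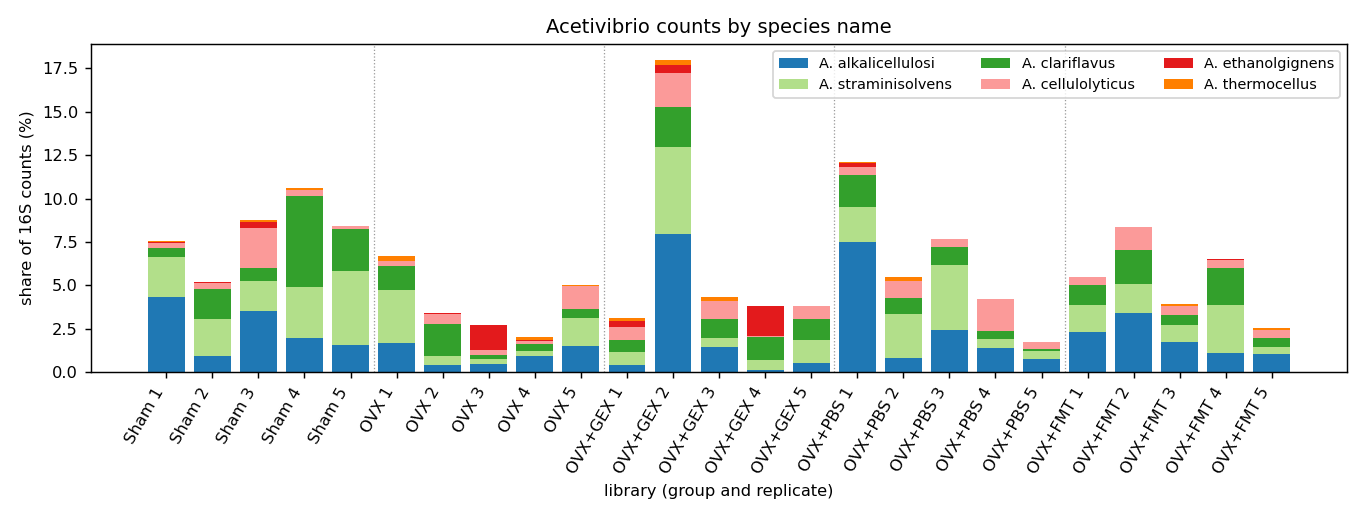
Share of 16S counts (percent) of the 6 Acetivibrio species names, stacked by library; dotted lines divide the 5 groups. The make-up differs between libraries of one group: A. ethanolgignens makes up 53.6% of the genus in OVX replicate 3 and is at 0 in 12 libraries.

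All Anaerobacterium ASVs carried 1 species name, Anaerobacterium chartisolvens, a cellulose degrader. Ruminiclostridium was divided between Ruminiclostridium hungatei, a cellulose degrader known to fix nitrogen (9 ASVs, 50.7% of the genus), Ruminiclostridium cellobioparum, first described from the bovine rumen (6 ASVs, 47.0%), and Ruminiclostridium cellulolyticum, a model for cellulosome studies (1 ASV, 2.35%), which is named here to complete the genus. R. cellobioparum was present in 15 libraries and exceeded 1% of counts in only 2, Sham replicate 4 (1.06%) and OVX replicate 1 (1.17%). In OVX+PBS it was at 0 in 3 libraries and at most 0.0342%. R. hungatei was present in 19 libraries, at 0.716% in OVX replicate 5 and 0.709% in OVX+FMT replicate 5.

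None of the 125 species tested passed an adjusted p of 0.05 in the 4 comparisons (0% each; 8%, 8%, 11.2% and 12.8% at an unadjusted p under 0.05, in the order used above). Among the member species the lowest unadjusted edgeR p was that of R. cellobioparum for OVX+PBS against OVX, 0.0251 (adjusted p = 0.265), with a log2 fold change of -4.30 (SE 1.83). In OVX that species stood at 1.17%, 0%, 0%, 0.0494% and 0.0933%, so the OVX mean rests on replicate 1. For OVX against Sham, A. clariflavus gave -1.19 (SE 0.72, adjusted p = 0.744) and A. alkalicellulosi -1.08 (SE 0.82, adjusted p = 0.840).

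At the level of single variants the 3 genera were built differently. One Anaerobacterium variant, ASV_15, held 34.1% of that genus and led it in 23 of 25 libraries. The exceptions were Sham replicate 3, led by ASV_52, and OVX+PBS replicate 5, led by ASV_298. The leading 2 variants held 50.4% of the genus. In Acetivibrio the top variant held 13.7% and the top 2 held 26.7%, and 7 different variants led in at least 1 library: ASV_28 in 7, ASV_23 in 6, ASV_22 in 5, ASV_31 in 4 and 3 more in 1 each. In Ruminiclostridium the top variant held 39.2%, yet 9 different variants led in its 21 libraries. That variant, ASV_85 (R. cellobioparum), and ASV_137 (R. hungatei) were each seen in 8 libraries, while ASV_191 (R. hungatei) was seen in 14 at no more than 0.223%. A lead in Ruminiclostridium can rest on few reads: the whole genus had 5 counts in OVX replicate 2 and 7 in OVX+PBS replicate 2.

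ASV_15 was at 4.47%, 3.65%, 1.74%, 1.14% and 1.39% of all counts in Sham and at 1.09%, 0.759%, 0.414%, 2.28% and 2.70% in OVX. In OVX+GEX it was at 3.16%, 0.591%, 0.833%, 2.22% and 1.27%, and in OVX+FMT at 1.34%, 2.02%, 0.735%, 2.49% and 1.09%. In OVX+PBS it stood at 3.06%, 1.16%, 3.74%, 1.24% and 0%. The ranges of all groups overlapped. ASV_72, next after ASV_15 and ASV_24 by mean share, was seen in 23 libraries at up to 0.387% (OVX+FMT replicate 3). OVX+PBS replicate 5, with 8833 counts in all, held none of ASV_15, ASV_24, ASV_22, ASV_25 and ASV_23, while ASV_28 stood at 0.453% there.

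ASV_23, named A. straminisolvens, was at 1.12%, 1.80%, 1.63%, 2.31% and 3.00% in Sham and at 1.75%, 0%, 0.152%, 0.227% and 0.301% in OVX. OVX replicate 1 alone lay inside the Sham range. The edgeR estimate was -2.02 (SE 1.30, adjusted p = 0.592). ASV_28, which has the same species name and was chosen here after its values were seen, was at 0.699%, 0.307%, 0.0921%, 0.214% and 0.188% in Sham and at 1.31%, 0.343%, 0.131%, 0% and 1.24% in OVX. Its estimate had the other sign, 1.07 (SE 1.13, adjusted p = 0.903). Variants of one species name thus had unlike levels in the same libraries.

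Some pairs of variants had shares that rose and fell together across libraries. They were picked after their values were seen and are given as a description. ASV_22 and ASV_25, both A. alkalicellulosi, were both present in 19 libraries, with a ratio of ASV_22 to ASV_25 of 0.667 to 1.33 and a median of 1.04. Spearman's rho over the 25 libraries was 0.964. Their shares ran from 0 to 3.82% and from 0 to 3.68%, and both peaked in OVX+GEX replicate 2. ASV_15 and ASV_24, both A. chartisolvens, had a ratio of 1.38 to 3.11 with a median of 2.00 in the 23 libraries where both were present (rho 0.926). The next pair by rho had unlike species names, ASV_23 (A. straminisolvens) and ASV_60 (A. clariflavus). Its rho was 0.833, with a wider ratio of 0.697 to 21.7 in the 19 libraries where both were present. The median rho over 136 pairs of Acetivibrio variants was 0.0727 and over 153 pairs of Anaerobacterium variants 0.119. Shares in one library have a common total, and whether such a pair stems from one genome was not tested.

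**Figure D4:**
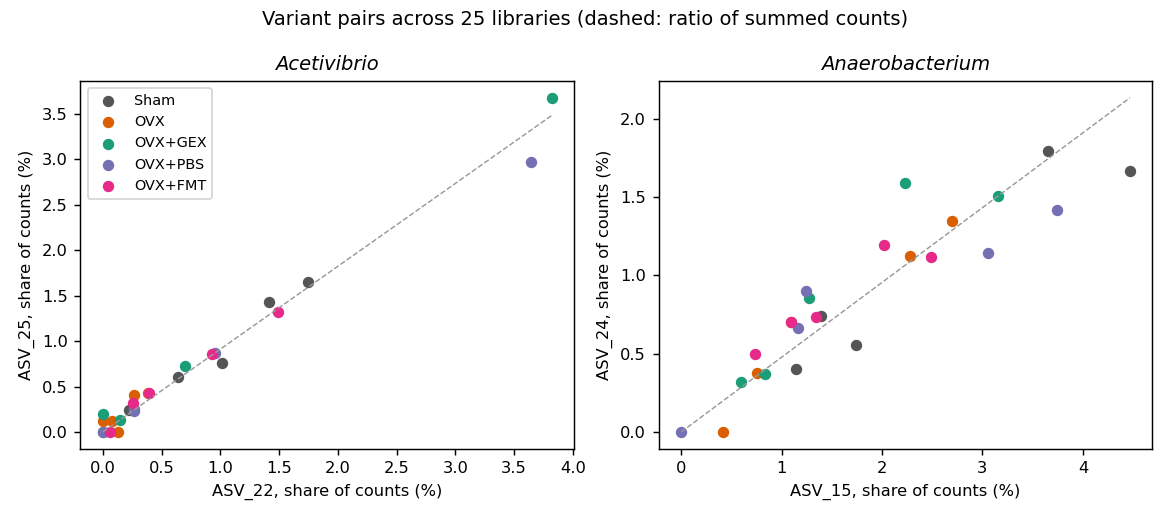
Shares of counts (percent) of the variant pairs ASV_22 with ASV_25 (left) and ASV_15 with ASV_24 (right), one point per library, coloured by group; the dashed line is the ratio of summed counts. Points of all groups scatter around the line, with ratios of 0.667 to 1.33 on the left and 1.38 to 3.11 on the right where both variants were present.

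Most member variants were rare. Of the 295, 106 (35.9%) were seen in 1 library, against 39.1% of all ASVs, and 9 were seen in at least 20 libraries. No member variant was present in all 25 libraries, while 20 ASVs of the whole table were. All 5 groups held 42 members (14.2%, against 13.1% of all ASVs), and 116 members (39.3%, against 44.1%) were found in only 1 group. A count of at least 3 in 5 libraries was reached by 74 members (31 Acetivibrio, 38 Anaerobacterium and 5 Ruminiclostridium), which hold 90.0% of the members' counts.

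Of the 379 ASVs tested, none passed an adjusted p of 0.05 by edgeR in any comparison (0% each). At an unadjusted p under 0.05, 10 members were lower and 6 higher in OVX than in Sham, 21.6% of the 74 tested against 17.2% of all ASVs. The members' shares were 16.2% for OVX+GEX against OVX, 13.5% for OVX+FMT against OVX+PBS and 20.3% for OVX+PBS against OVX, where all ASVs gave 19.3%, 21.1% and 24.8%. The median log2 fold change of the members in OVX against Sham was -0.19, and that of all ASVs -0.28. In OVX+PBS against OVX the members' median was 0.16 and that of all ASVs -0.53.

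One member variant, of the 74 tested, passed the threshold under another tool (1.35%, against 1.58% of all ASVs under that tool). ASV_221, an A. chartisolvens variant of Anaerobacterium, was at 0.452%, 0%, 0.202%, 0.116% and 0.178% in Sham, at 0.171% in OVX+FMT replicate 2 and at 0 in the other 19 libraries outside Sham. It was lower in OVX than in Sham by limma on centred log-ratios (difference -4.35, adjusted p = 0.0436). By edgeR it was not past the threshold (log2 fold change -7.51, SE 2.70, adjusted p = 0.158). OVX held no counts of it, so the size of the limma difference depends on the 0.5 added to counts. ASV_221 met the count filter only through Sham, the group where it was high, so these p-values are no independent support for a difference. Over all alternatives its adjusted p ran from 0.0436 to 0.919. It was singled out after its values were seen.

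The number of variants was compared at equal depth, as the expected number of ASVs in 8498 reads. Acetivibrio had 25.1 ± 4.57 in Sham, 19.3 ± 3.78 in OVX, 19.8 ± 5.04 in OVX+GEX, 22.2 ± 8.33 in OVX+PBS and 25.04 ± 3.14 in OVX+FMT (SD, n = 5). The OVX libraries held from 15 to 24, the Sham libraries from 19.97 to 30.5, and the groups overlapped. The difference of -5.79 had an exact two-sided permutation p of 0.0714 (adjusted p = 0.340 over 81 genera; 13.6% of genera were lower and 1.23% higher in OVX at an unadjusted exact p under 0.05). Anaerobacterium had 24.0 ± 4.93, 23.5 ± 10.4, 20.1 ± 7.27, 24.0 ± 10.9 and 29.4 ± 7.62 variants (SD, n = 5) in the same order, and Ruminiclostridium between 2.18 and 3.15 on average. The adjusted exact permutation p of Acetivibrio for OVX+PBS against OVX was 0.884, and those of the remaining members and comparisons were 1. At an unadjusted exact p under 0.05, which no member reached for richness, the genera gave 1.23% higher and 2.47% lower in OVX+GEX against OVX, 6.17% higher and 1.23% lower in OVX+FMT against OVX+PBS, and 0% higher and 3.7% lower in OVX+PBS against OVX. Libraries of the compared groups did not overlap for at most 2.47% of genera, and overlapped for each of the 3 members.

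The whole community had 358 ± 35.1 ASVs in 8498 reads in Sham and 252.3 ± 39.2 in OVX (SD, n = 5). The 3 genera together had 51.8 ± 8.25 in Sham and 45.6 ± 14.9 in OVX, so their part of the richness was 14.5% ± 2.35 and 18.7% ± 7.13 (SD, n = 5). It was 18.2% ± 2.29 in OVX+GEX, 23.2% ± 2.04 in OVX+PBS and 24.3% ± 6.70 in OVX+FMT (SD, n = 5). In these 3 groups the whole community had 231 ± 51.1, 212 ± 79.5 and 243 ± 39.0 ASVs. The 3 genera together had 42.0 ± 11.4, 49.4 ± 19.6 and 57.2 ± 10.9 (SD, n = 5). These sums over members are given without a test.

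**Figure D5:**
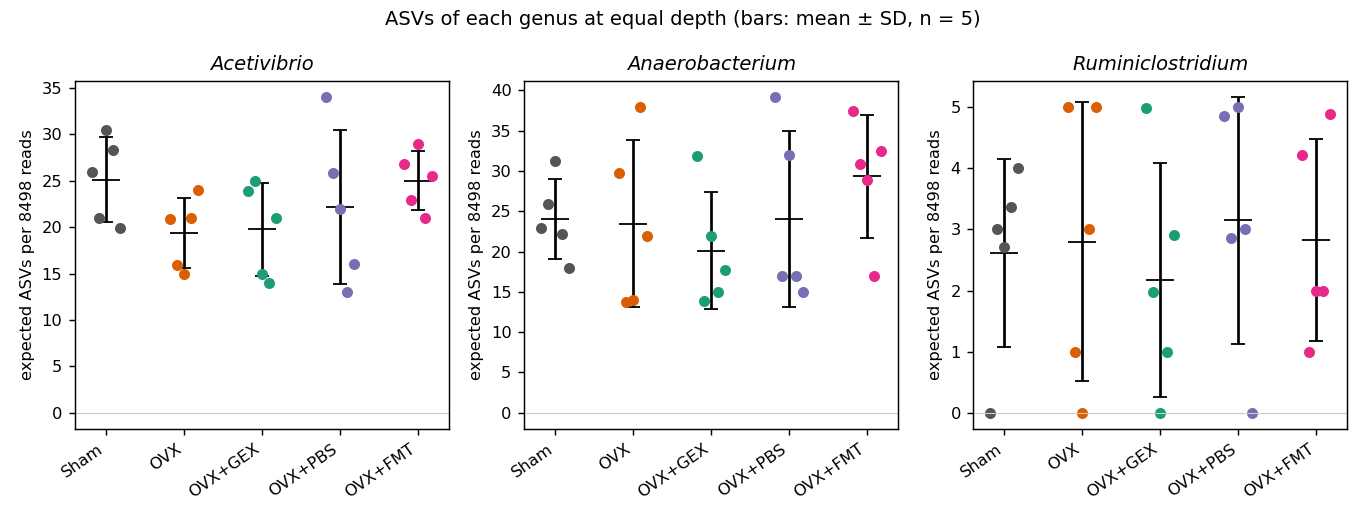
Expected number of ASVs of each genus in 8498 reads by group; points are libraries, horizontal marks and bars the mean and SD of 5 libraries. Acetivibrio averages 25.1 in Sham and 19.3 in OVX with overlapping libraries.

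The 3 genera were not tightly linked to each other. Across the 25 libraries, the centred log-ratios of Anaerobacterium and Ruminiclostridium gave Pearson's r = 0.523 (permutation p = 0.00780, adjusted p = 0.0234 over 3 relations) and Spearman's rho = 0.525 (permutation p = 0.00808, adjusted p = 0.0242). After each group's mean was subtracted, r was 0.513. Without OVX replicates 2 and 3, the libraries farthest from the Anaerobacterium median, r was 0.375. Acetivibrio gave r = 0.212 with Anaerobacterium (rho = 0.269, adjusted permutation p = 0.309 and 0.193) and r = 0.319 with Ruminiclostridium (rho = 0.328, adjusted permutation p = 0.180 and 0.164). Without OVX+GEX replicate 2 and OVX+PBS replicate 1, these r values were 0.365 each.

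The genera with the most similar pattern to Acetivibrio over 25 libraries, by Spearman's rho of centred log-ratios, were Gluceribacter (0.522), Kurthia (0.499) and Pseudoflavonifractor (0.490). For Anaerobacterium they were Holdemania (0.575), Spiroplasma (0.532) and Ruminiclostridium, and for Ruminiclostridium they were Anaerobacterium, Flavonifractor (0.458) and Intestinimonas (0.343). These values are descriptions, since all genera share each library's total and depth.

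Other genera known for degrading fibre, and other genera of the same family, were looked at beside them. Of 18 listed fibre degraders, 5 were in the table and tested, and 0 passed the adjusted threshold in any comparison by edgeR. Of 19 other Oscillospiraceae genera, 15 were tested and 0 passed. The median log2 fold change of the 5 fibre degraders in OVX against Sham was 0.29 and that of the 15 family members -0.29, against 0.15 for all genera. Duncaniella, which grows on plant and host polysaccharides, averaged 13.2% in Sham, 23.3% in OVX, 16.5% in OVX+GEX, 36.2% in OVX+PBS and 22.6% in OVX+FMT. Its SDs ran from 5.91 points in Sham to 17.0 in OVX+PBS. Its lowest library, OVX+GEX replicate 2 at 1.87%, was the one with the highest Acetivibrio share. OVX+PBS replicate 1, next by Acetivibrio share, held 28.2% Duncaniella, and a link between these genera was not tested. Ruminococcus, a genus with cellulose and starch degraders, averaged 5.50% ± 1.76 in Sham and 6.34% ± 3.17 in OVX (SD, n = 5). Oscillibacter averaged 0.750% ± 0.299 and 0.829% ± 0.435 (SD, n = 5), so both genera differed by less than their SDs. Duncaniella, Ruminococcus and Oscillibacter are the genera of each list with the highest mean share, and most others lay the other way by mean share. Mean shares were lower in OVX than in Sham for 3 of the 5 fibre degraders, 9 of the 15 family members and 53 of all 81 genera. The edgeR estimates divided otherwise: they were higher in OVX for 4 of the 5, 7 of the 15 and 44 of the 81.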

How the data were processed

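PacBio sequencing was used for amplicons of the fecal 16S rRNA gene. Per the file headers, the deposited table gives read counts for each ASV and its name at 7 taxonomic ranks. The counts were whole numbers made by the authors, with 0 values of 1 and 464 of 2; Subread is named without version in the submitters' processing notes, and the denoiser, primers and taxonomy database were not given in the sources used here. Columns were matched to samples by name; 5 columns spelled OVX+GES were taken as OVX+GEX, and 0 were left unmapped. Counts were summed per genus and species; 1 ASV with 13 counts (0.00432% of counts) had no genus.

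Genera, species and ASVs with a count of at least 3 in 5 libraries (81, 125 and 379) were tested with edgeR 4.0.16 (R 4.3.3; TMM, all libraries in 1 fit, Benjamini-Hochberg, threshold 0.05), and genus shares and richness with exact two-sided permutation tests over 252 splits (smallest p 0.00794). Centred log-ratios used 0.5 added to counts. DESeq2 1.42.0, limma 3.58.1, other scalings and filters, single libraries left out and a replicate block were alternatives. The edgeR code was run on simulated counts with the same dispersion for all features and large set changes. That checks the code and not the power in these data. No 2 libraries of the same group agreed within sampling noise (lowest chi-square per degree of freedom 22.2). Members and lists were chosen with earlier results of these data known. Named were the 3 genera, species of at least 0.05% mean share or past the threshold, and the top 3 ASVs of each genus by mean share. Also named were called ASVs, the 3 most similar genera, and the 2 highest or called genera of each list. R. cellulolyticum, the leading variants ASV_31, ASV_52 and ASV_298, ASV_28, ASV_60 and ASV_221 were chosen after their values were seen.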

Additional observations from a re-analysis of the deposited data

Results flagged for a closer look

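Of 115 sets of 5 libraries (genera, species and leading variants by group), 25 had 1 library far from its 4 group mates, by a gap above Dixon's 95% critical value. The critical value is set so that chance passes it in about 5% of independent sets without ties, a yardstick that cannot be applied here: in 6 of the 25 only 1 library was above 0, which always passes, and sets of a genus, its species and its variants share counts. OVX+GEX replicate 2 stood apart in Acetivibrio (18%), A. alkalicellulosi (7.94%), A. straminisolvens (5.02%), ASV_22 (3.82%), ASV_25 (3.68%) and ASV_85 (0.0902%). OVX+PBS replicate 1 stood apart in A. alkalicellulosi (7.52%), ASV_22 (3.65%), A. ethanolgignens (0.221%) and ASV_137 (0.0690%).

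Sham replicate 3 was high in A. cellulolyticus (2.34%) and A. ethanolgignens (0.328%), and OVX+FMT replicate 2 in A. cellulolyticus (1.33%). A. ethanolgignens was also high in OVX replicate 3 (1.46%), OVX+GEX replicate 4 (1.73%) and OVX+FMT replicate 4 (0.0633%). A. thermocellus was high in OVX+PBS replicate 2 (0.258%). R. cellobioparum was high in Sham replicate 4 (1.06%) and OVX replicate 1 (1.17%), and in the latter also ASV_85 (1.10%) and the Acetivibrio variant ASV_23 (1.75%). OVX replicate 5 was high in R. hungatei (0.716%) and its variant ASV_137 (0.550%). ASV_137 was high in OVX+GEX replicate 1 (0.0564%) and OVX+FMT replicate 5 (0.547%) as well. The part of depth or animal in these values was not tested.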

How the results depend on the processing

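No member genus passed an adjusted p of 0.05 under any alternative run, and ASV_221 was the only member species or variant that did. The cause of the sign changes below was not tested. Outside the single-library tests, 192 of the member estimates kept their sign and 36 did not, and 93 of the counts of calls were unmoved and 27 moved.

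By DESeq2's Wald test, the calls over all features in OVX against Sham were 1 genus, 1 species and 2 ASVs, in OVX+GEX against OVX 2 ASVs, in OVX+FMT against OVX+PBS 6 ASVs and in OVX+PBS against OVX 1 genus, 1 species and 5 ASVs, where edgeR made 0. Limma on centred log-ratios called 1 genus, 3 species and 6 ASVs in OVX against Sham, 1 genus and 1 species each in OVX+GEX against OVX and in OVX+FMT against OVX+PBS, and 1 genus in OVX+PBS against OVX. Without a filter edgeR called 1 ASV in OVX against Sham, 1 genus and 1 ASV in OVX+GEX against OVX, 1 genus in OVX+FMT against OVX+PBS and 6 ASVs in OVX+PBS against OVX. In that last comparison TMMwsp called 2 ASVs, a count of at least 10 called 2, and a fit of only the groups compared called 4. That fit also called 2 ASVs in OVX+GEX against OVX, and 1 species and 2 ASVs in OVX+FMT against OVX+PBS.

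The Anaerobacterium log2 fold change for OVX against Sham became 0.17 with TMMwsp and 0.0173 in the fit of the groups compared. For OVX+GEX against OVX it became -0.0210 with TMMwsp and -0.0340 with library totals. For OVX+FMT against OVX+PBS it became -0.19 with DESeq2's size factors and with its Wald test, -0.0185 with library totals, -0.0198 with limma, -0.11 without a filter and -0.0601 in the fit of the groups compared. The Ruminiclostridium value for OVX against Sham became -0.0215 with library totals and -0.0276 with limma, and for OVX+PBS against OVX 0.34 with limma.

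Without Duncaniella and Ligilactobacillus counts the share differences of Anaerobacterium became 1.28 (OVX against Sham), 0.444 (OVX+FMT against OVX+PBS) and -0.337 points (OVX+PBS against OVX), and that of Ruminiclostridium 0.433 in OVX against Sham. Of Firmicutes counts the latter was 0.257. As centred log-ratios, Anaerobacterium in OVX+GEX against OVX was 0.167 and Ruminiclostridium in OVX+PBS against OVX 0.344. In 4000 reads the Anaerobacterium richness difference for OVX+PBS against OVX was -0.0326. Only values whose sign changed are listed above. For the Acetivibrio share difference in OVX against Sham, the adjusted exact p ran from 0.214 to 0.709 over all alternatives. Ligilactobacillus held 4.46% to 21.0% of counts in the Sham libraries and 9.36% to 37.1% in those of OVX. A link between its share and that of Acetivibrio was not tested.

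Leaving out the 5 libraries above 15000 counts was chosen after seeing the data. Richness differences became 1.20 (Anaerobacterium, OVX against Sham), and, in OVX+PBS against OVX, -0.122 (Acetivibrio), -3.25 (Anaerobacterium) and -0.0828 (Ruminiclostridium). Share differences became 0.0556 (Ruminiclostridium, OVX against Sham), -0.165 (Anaerobacterium, OVX+PBS against OVX), and, in OVX+FMT against OVX+PBS, 1.48 (Acetivibrio), 0.403 (Anaerobacterium) and -0.176 (Ruminiclostridium), with log2 fold changes of 0.10, -0.14 and -1.43.

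The labels give replicate numbers no shared origin. Correlations of same-numbered deviations from the group means ran from 0.0913 to 0.201 in OVX+GEX against OVX, where 4 of the 5 pairs exceeded 0.1 and 7 of 10 libraries correlated best with their own number, a hint from the data and not the design. In the other comparisons they ran from -0.286 to 0.204, with at most 3 of 10 libraries best with their own number. No comparison had every pair above 0.1, so the numbers were not treated as pairs. With the replicate block, Ruminiclostridium log2 fold changes were -0.31 (OVX against Sham), -0.40 (OVX+FMT against OVX+PBS), 0.61 (OVX+PBS against OVX) and -1.06 (OVX+GEX against OVX). In the last of these, Acetivibrio was 0.86. In all comparisons the block added 0 calls. It fits replicate effects shared by all 5 groups, so it does not test a pairing of OVX+GEX with OVX alone.

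With each library left out in turn, ranges that crossed 0 were as follows. In OVX against Sham, log2 fold changes ran from -0.33 to 0.20 (Anaerobacterium) and -0.43 to 0.82 (Ruminiclostridium), richness differences from -4.16 to 1.87 and -0.467 to 0.886, and the Ruminiclostridium share difference from -0.240 to 0.138. In OVX+GEX against OVX, Acetivibrio ran from -0.212 to 3.52 (share) and -0.875 to 1.86 (richness), Anaerobacterium from -0.13 to 0.25 (log2), -1.08 to 0.574 (share) and -6.31 to 0.236 (richness). In OVX+FMT against OVX+PBS, Acetivibrio ran from -0.47 to 0.10 (log2) and -2.01 to 0.579 (share), Anaerobacterium from -0.21 to 0.34 and -0.922 to 0.967, and Ruminiclostridium from -0.49 to 1.07, -0.107 to 0.114 and -1.11 to 0.140 (richness). In OVX+PBS against OVX, Acetivibrio richness ran from -0.122 to 5.14, Anaerobacterium from -0.0751 to 0.35 (log2), -0.818 to 1.07 (share) and -3.25 to 4.16 (richness), and Ruminiclostridium from -1.06 to 0.27, -0.305 to 0.0529 and -0.353 to 1.13. The genera and species called in OVX+FMT against OVX+PBS ran from 0 to 2 each; both counts of 2 came without OVX+FMT replicate 4.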
